A study of Mus musculus with 4 samples.

Results

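Genes of the Notch pathway were followed in RNA from the dissected cortex of C57BL/6 mice at embryonic day 15. Embryos of genotype Prdm16cKO, a conditional knockout of Prdm16 (called cKO), were compared with Prdm16fl/fl embryos, which carry the floxed alleles (called floxed). The 34 genes were chosen by symbol as ligands, receptors, processing enzymes, nuclear partners, targets and regulators of Notch signalling, out of the 19968 genes present in both deposited tables. Each of the 34 was present once and passed the filter on low counts, with 69 to 8473 counts per library. The labels name 2 samples of each genotype but neither the Cre line nor the deleted exon. The title of 1 sample of each genotype holds the word Blood, with no explanation, and the titles do not show which sample gave which column. The tables held 2 libraries labelled cKO, called cKO 1 and cKO 2, and 1 floxed library, which stands in both tables with the same counts. Another floxed sample is not analysed here. Levels are given as CPM, the count of a gene in 1000000 counts of its library, and an SD, over 2 libraries, can be given for cKO and not for floxed.

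Notch receptors are activated by Delta or Jagged ligands on a neighbouring cell. Proteases then cut the receptor, and its intracellular part enters the nucleus, joins the DNA-binding protein RBPJ and a Mastermind coactivator, and switches on repressors of the Hes and Hey families. In the embryonic cortex this keeps radial glia, the neural stem cells, from becoming neurons, while newborn neurons and intermediate progenitors carry the ligand. In blood vessels the same pathway, with other receptors and ligands, sets arterial and tip cell identity and supports the mural cells around the endothelium.

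The libraries held 17836634 to 19511861 counts, so that a count of 0 allowed up to 0.154 to 0.168 CPM. Prdm16 had 34.6 CPM in cKO 1, 24.1 CPM in cKO 2 and 30.2 CPM in floxed, so the library labelled cKO 1 had more Prdm16 than floxed. These counts cover all exons and the deleted part is not named, so they check neither label, and every direction below rests on the labels. The 8 cortical neuron markers summed to 6744 to 6858 CPM and the 11 radial glia markers to 2064 to 2808 CPM. Markers of meninges summed to 777 CPM in cKO 1, 486 CPM in floxed, and 28.9 CPM in cKO 2. Microglia markers (126, 94.7 and 47.7 CPM) and vessel markers (values below) followed the same order, and choroid plexus markers were also lowest in cKO 2 (1080, 1098 and 329 CPM). Results on the genes of vessels are therefore given for each library apart. In such bulk tissue fewer cells of a type and less RNA per cell cannot be told apart.

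The Notch genes as a group had similar summed levels in the libraries. They came to 2183 CPM in cKO 1, 2239 CPM in cKO 2 and 2166 CPM in floxed, and their median log2 ratio to floxed was 0.04 in cKO 1 and -0.03 in cKO 2, beside 0.01 and -0.04 over all genes tested. Across the group comparison of cKO with floxed, edgeR's quasi-likelihood test called 0 of the 34 genes at an adjusted p under 0.05, against 0.00598% of all 16725 genes (1 gene). At an unadjusted p under 0.05, edgeR had 1 of 34 (Lfng), against 1.53% of all genes. DESeq2 and limma-voom also called 0 of 34. The spread in this fit comes from the cKO libraries alone, and nothing says that they came from separate litters or days. The p-values therefore speak of library spread, possibly technical, and not of spread among embryos.

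Each cKO library was then set against floxed on its own. A gene counted as past the fold when its CPM was at least 25% above or 20% below that of the other library and the exact 95% interval of the count ratio excluded 1. These intervals cover counting error only. The 2 comparisons share the floxed library, so neither is a check of the other. In cKO 1, 1 of 34 was higher (Maml2, 2.94%, against 8.03% of all genes tested) and 0 were lower (against 4.77%). In cKO 2, 4 of 34 were higher, namely Lfng, Hes1, Hes5 and Hey2 (11.8%, against 5.62% of all genes). Another 5 were lower, namely Heyl, Jag1, Dll4, Notch4 and Notch2 (14.7%, against 13.9%). The share of lower genes thus lay near that of all genes in cKO 2. The other shares rest on 0 to 4 genes and are a description only.

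**Figure D1:**
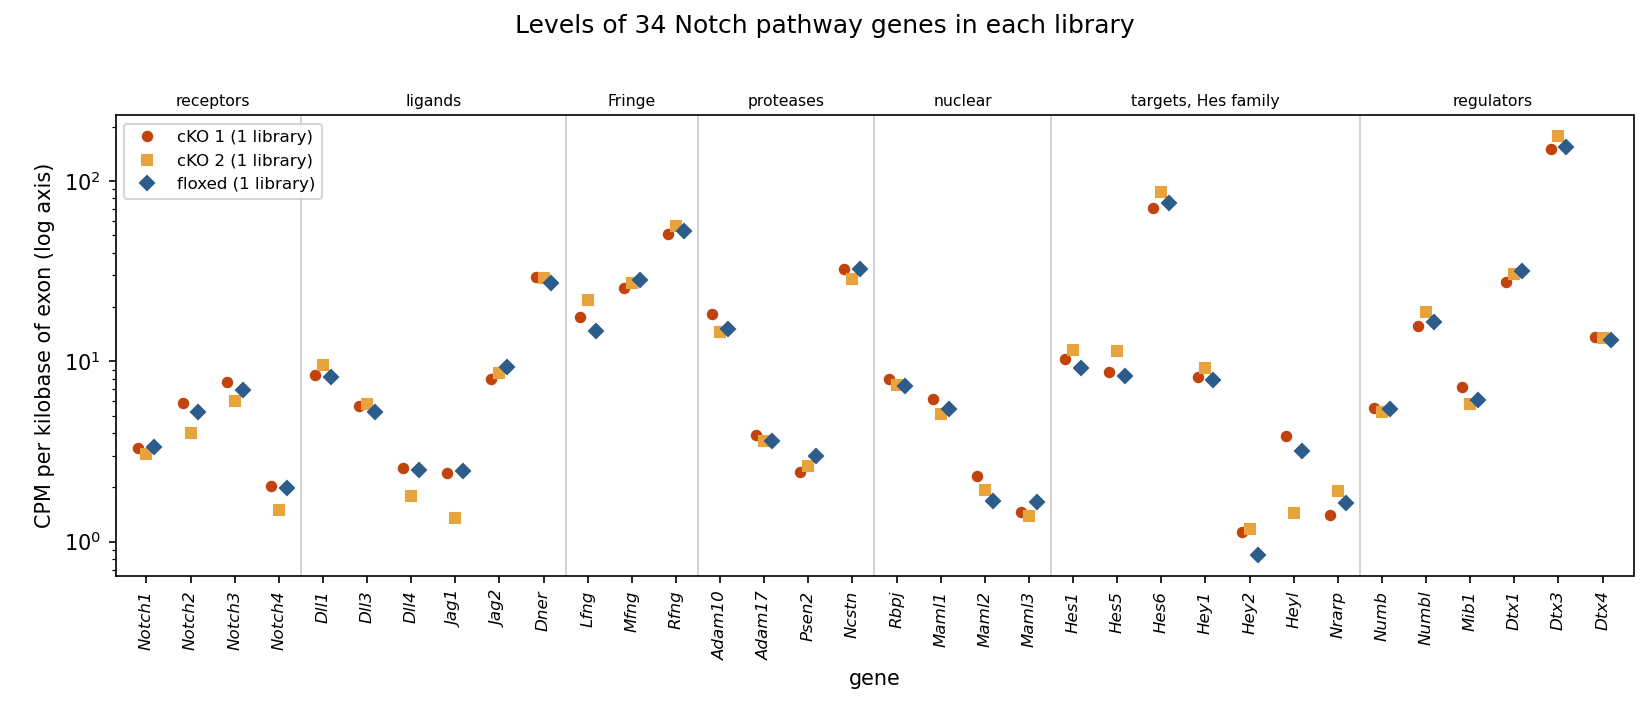
Level of each of the 34 Notch pathway genes in the cKO 1, cKO 2 and floxed libraries, in CPM per kilobase of exon on a log axis, grouped by role. Each point is 1 library. Levels span from 0.842 (Hey2, floxed) to 177 (Dtx3, cKO 2), and the libraries lie far closer to each other than the genes do, apart from Heyl and Jag1.

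Each Notch gene encodes a single-pass receptor, with Notch1 the main receptor of cortical radial glia, Notch3 and Notch4 best known from mural cells and endothelium, and Notch2 present in both settings. Notch1 (chromosome 2, 26457903 to 26516663, minus strand) had 47.2 CPM in cKO 1, 43.6 CPM in cKO 2 and 47.6 CPM in floxed. Its levels lay close together, with floxed above both cKO libraries by a small margin. The fitted log2 fold of -0.07 (SE 0.15) did not pass the test, which does not show that the groups are alike.

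The other receptors were split between the cKO libraries. Notch2 (chromosome 3, 98013527 to 98150361, plus strand) had 63.1 CPM in cKO 1, 42.9 CPM in cKO 2 and 56.3 CPM in floxed, with log2 ratios of 0.16 and -0.39. Notch3 had 62.0, 48.9 and 55.8 CPM in the same order of libraries. Notch4 had 16.4, 12.004 and 15.98 CPM. For these receptors floxed lay between the cKO libraries, so the groups overlapped. Notch4 had the largest fitted fold of the receptors, a log2 value of -0.17 (SE 0.29, edgeR adjusted p = 0.9999). Per kilobase of exon the order of levels was Notch3, Notch2, Notch1, Notch4 in each library. The ranges of neighbours in that order did not overlap, from 6.04 to 7.67 CPM per kilobase for Notch3 down to 1.49 to 2.03 for Notch4. The length used is the union of all annotated exons, 14232 bases for Notch1, 10782 for Notch2 and 8089 for Notch3. The place of Notch1 below Notch2 depends on it, since in CPM Notch1 was slightly above Notch2 in cKO 2. The place of Notch3 above Notch2 depends on it too, since in CPM Notch2 was slightly above Notch3 in cKO 1 and in floxed.

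Of the 6 ligand genes, the neural Delta genes and Dner were a little higher in both cKO libraries, and Jag1 and Dll4 were lower in cKO 2. Dll1, the Delta ligand of differentiating cortical progenitors, had 35.6 CPM in cKO 1, 40.4 CPM in cKO 2 and 34.5 CPM in floxed. Dll3, a family member that acts inside the cell against Notch activation, had 16.1, 16.6 and 14.9 CPM. Floxed was the lowest library for both, but neither passed the fold in a cKO library, and the fitted log2 folds were 0.14 (SE 0.17) and 0.14 (SE 0.25). Dll1 shares 20.6% of its exon bases with a gene on the other strand, A930024N18Rik, from which this kit cannot separate it.

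Dner, a Notch-binding protein of neurons, had 139.6 CPM in cKO 1, 139.0 CPM in cKO 2 and 130.2 CPM in floxed. The cKO libraries were nearly the same and stood above floxed by a log2 ratio of 0.10 and 0.09. Jag2, which encodes a Jagged ligand, had 55.9, 59.7 and 64.5 CPM, with floxed the highest library. Dner was the most abundant ligand gene per kilobase (27.2 to 29.2 CPM per kilobase). Jag2 and Dll1 followed with overlapping ranges, and Jag1 and Dll4 were the lowest.

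Jag1, the Jagged ligand that signals from endothelium to mural cells and is also made by neural progenitors, differed most of the ligands. Jag1 (chromosome 2, 137081456 to 137116644, minus strand) had 13.9 CPM in cKO 1, 7.91 CPM in cKO 2 and 14.3 CPM in floxed, on 272, 147 and 255 counts. The difference lay in cKO 2 alone, with a log2 ratio to floxed of -0.85 (95% interval -1.16 to -0.55) against -0.04 (-0.29 to 0.22) in cKO 1. Over both libraries it was -0.39 on the log2 scale (SE 0.37, edgeR adjusted p = 0.9999), and without cKO 2 it is -0.04. Dll4, the Delta ligand of endothelial tip cells, had 9.84 CPM in cKO 1, 6.89 CPM in cKO 2 and 9.64 CPM in floxed. It too was low in cKO 2 only, at a log2 ratio of -0.48 (95% interval -0.83 to -0.15).

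Fringe enzymes add a sugar to the fucose on Notch receptors in the Golgi and so shift their preference between Delta and Jagged ligands. Lfng was the gene of this group that stood out. Lfng (chromosome 5, 140607320 to 140615545, plus strand) had 44.4 CPM in cKO 1, 54.6 CPM in cKO 2 and 36.7 CPM in floxed, on 866, 1014 and 655 counts. Both cKO libraries lay above floxed, and the mean was 49.5 ± 7.21 CPM (SD, n = 2).

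The log2 ratio of Lfng to floxed was 0.27 (95% interval 0.13 to 0.42) in cKO 1 and 0.57 (0.43 to 0.72) in cKO 2. Both intervals lay above 0, as they did for Dner at smaller ratios. In cKO 1 Lfng stayed under the 25% mark. The cKO libraries also differed from each other in Lfng, with a log2 ratio of cKO 1 to cKO 2 of -0.30 (-0.43 to -0.17). Over both libraries the fold was 0.43 on the log2 scale (SE 0.18, edgeR unadjusted p = 0.042, adjusted p = 0.9999), so the gene did not pass over all genes tested. In the authors' deposited tables Lfng had adjusted p-values of 0.00168 and 2.69e-14, each from 1 library against 1, and was not marked significant. The related genes did not share this pattern. Mfng had 72.2 CPM in cKO 1, 77.1 CPM in cKO 2 and 79.7 CPM in floxed, and Rfng had 126.6, 139.5 and 131.5 CPM.

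The proteases differed little. Adam10, the main enzyme that sheds the Notch ectodomain, had 90.2 CPM in cKO 1, 71.6 CPM in cKO 2 and 74.5 CPM in floxed, and its relative Adam17 had 27.9, 25.7 and 25.9 CPM. For both, floxed lay between the cKO libraries. Ncstn, the gamma-secretase subunit that receives the substrate, had 129.9, 113.9 and 129.4 CPM. Psen2, a catalytic presenilin of the same complex, had 10.6, 11.4 and 12.9 CPM, with floxed the highest. Its fitted log2 fold of -0.23 (SE 0.28, edgeR adjusted p = 0.9999) was the largest of the proteases.

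Rbpj, the DNA-binding protein of the pathway, had 102.3 CPM in cKO 1, 93.9 CPM in cKO 2 and 92.8 CPM in floxed. Among the Mastermind coactivators, Maml1 had 34.03, 28.2 and 30.1 CPM, with floxed between the cKO libraries. Maml3 had 15.3, 14.6 and 17.3 CPM, with floxed the highest. The Rbpj value in cKO 2 matched floxed to a log2 ratio of 0.02, so the small excess lay in cKO 1.

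Maml2 was the single gene past the fold in cKO 1. It had 15.2 CPM in cKO 1, 12.8 CPM in cKO 2 and 11.1 CPM in floxed, on 296, 237 and 198 counts. Both cKO libraries were above floxed, at log2 ratios of 0.45 (95% interval 0.19 to 0.72) and 0.20 (-0.08 to 0.48). The fold fitted over both was 0.33 on the log2 scale (SE 0.28, edgeR adjusted p = 0.9999).

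Hes1 and Hes5 encode the repressors through which Notch holds back proneural genes in radial glia, Hey1 and Hey2 encode related repressors shared with vessels, and Heyl is a target of Notch3 in mural cells. In cKO 2, Hes1, Hes5 and Hey2 were past the fold as higher than floxed and Heyl as lower, and Hey1, Hes6 and Nrarp were not past it. Hes1 (chromosome 16, 30064384 to 30067796, plus strand) had 20.96 CPM in cKO 1, 23.6 CPM in cKO 2 and 18.7 CPM in floxed. Hes5 (chromosome 4, 154960923 to 154962371, plus strand) had 11.9, 15.6 and 11.3 CPM. For both genes floxed was the lowest library. The log2 ratio to floxed was 0.17 (95% interval -0.05 to 0.38) and 0.34 (0.13 to 0.55) for Hes1, so counting error covers the difference in cKO 1. For Hes5 it was 0.08 (-0.19 to 0.36) and 0.47 (0.20 to 0.73). The fitted log2 folds were 0.25 (SE 0.22) and 0.29 (SE 0.30). Hes5 shares 31.8% of its exon bases with Gm20421 on the other strand, so part of its count is uncertain.

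Hey2 (chromosome 10, 30832359 to 30842801, minus strand) was the least abundant of the Hes and Hey genes per kilobase, with 5.18 CPM in cKO 1, 5.38 CPM in cKO 2 and 3.87 CPM in floxed, on 101, 100 and 69 counts. The cKO libraries agree within counting error and both lay above floxed, at log2 ratios of 0.42 (95% interval -0.04 to 0.88) and 0.48 (0.02 to 0.94). Its fitted log2 fold of 0.45 was the largest of all 34 genes (SE 0.39, edgeR adjusted p = 0.9999). Hey1 had 26.6, 29.98 and 25.7 CPM, again with floxed the lowest library and without passing the fold.

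Heyl (chromosome 4, 123233556 to 123249875, plus strand) had 19.6 CPM in cKO 1, 7.37 CPM in cKO 2 and 16.3 CPM in floxed, on 383, 137 and 290 counts. The cKO libraries fell on either side of floxed, with a log2 ratio of 0.27 (95% interval 0.05 to 0.50) in cKO 1 and -1.14 (-1.44 to -0.84) in cKO 2. Among the 34 genes it was the sole one marked significant in the authors' deposited tables, in cKO 2, where it had the largest log2 ratio of the 34. That mark did not follow the authors' adjusted p-value alone, since Lfng and Dtx3 had smaller ones in cKO 2 and were not marked. Without cKO 2 the fitted log2 fold of -0.27 (SE 0.49) turns to 0.27.

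Nrarp and Hes6 complete the group. Nrarp, a target whose product limits Notch signalling, had 3.64 CPM in cKO 1, 4.90 CPM in cKO 2 and 4.20 CPM in floxed, on 71 to 91 counts. Floxed lay between the cKO libraries, and 79.4% of the exon bases of Nrarp are shared with Gm38287 on the other strand, so its level is uncertain. Hes6, which encodes an antagonist of Hes1 made in cells on the way to neurons and is not a target in the usual sense, had 127.4, 157.3 and 136.4 CPM. It was the most abundant gene of the group per kilobase (70.5 to 87.0 CPM per kilobase), and floxed again lay in the middle.

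RBPJ binds the letters TGGGAA, most firmly as CGTGGGAA or TGTGGGAA. RefSeq promoters of 300 bases (GRCm38.p6, 250 before to 50 after a start site) were found for 27 of the 34 genes and searched on both strands, with the shorter motif contained in the longer ones. Hes1, Hey1, Heyl, Mfng, Mib1, Dtx3 and Dtx4 had no window and were not searched. TGGGAA was in a window of 7 of these 27 genes (25.9%) and in 28.3% of all 27025 genes with a window. CGTGGGAA or TGTGGGAA was in 4 of 27 (14.8%) and in 3.0% of all genes. The 4 were Hes5, Hey2, Lfng and Psen2, of which the first 3 were past the fold as higher in cKO 2 and Psen2 was not. Jag1, Dll4, Notch4 and Notch2, past it as lower in cKO 2, were searched and held no TGGGAA, as was so for most of the 27 genes. A link between motif and direction was not tested. Windows are printed for Hes5, Hey2 and Lfng, which held a longer motif and were past the fold as higher in cKO 2. They were chosen after the values were seen, and the largest differences, of Heyl and Jag1, lay in other genes. Capitals mark the motif on either strand, and a match describes the letters only. They lie at chr4:154960673-154960972 (plus strand), chr10:30842734-30843033 (minus strand) and chr5:140607091-140607390 (plus strand).
Hes5: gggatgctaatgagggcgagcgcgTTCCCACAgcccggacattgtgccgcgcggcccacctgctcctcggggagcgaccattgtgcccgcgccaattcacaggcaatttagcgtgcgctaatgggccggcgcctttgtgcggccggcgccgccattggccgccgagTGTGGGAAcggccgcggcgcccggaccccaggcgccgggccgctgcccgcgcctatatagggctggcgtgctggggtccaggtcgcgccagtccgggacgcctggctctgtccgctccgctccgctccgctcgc
Hey2: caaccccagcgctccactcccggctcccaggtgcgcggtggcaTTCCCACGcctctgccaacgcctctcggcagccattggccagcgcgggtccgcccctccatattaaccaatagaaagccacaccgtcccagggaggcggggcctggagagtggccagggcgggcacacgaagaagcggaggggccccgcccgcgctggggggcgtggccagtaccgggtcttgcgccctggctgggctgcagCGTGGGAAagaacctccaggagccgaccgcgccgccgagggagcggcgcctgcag
Lfng: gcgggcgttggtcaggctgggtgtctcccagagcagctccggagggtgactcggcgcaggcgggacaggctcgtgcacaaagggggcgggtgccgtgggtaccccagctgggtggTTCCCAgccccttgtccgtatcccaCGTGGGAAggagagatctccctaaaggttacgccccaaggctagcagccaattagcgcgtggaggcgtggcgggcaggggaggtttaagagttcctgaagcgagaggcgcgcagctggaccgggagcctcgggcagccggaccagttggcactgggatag

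Counted from the start site, with no base 0, the Hes5 window had TGTGGGAA on the minus strand at -226 to -219 and on the plus strand at -84 to -77, each strand given relative to the gene. Hey2 had CGTGGGAA on the minus strand at -207 to -200 and on the plus strand at -5 to 3, across the start site. Lfng had CGTGGGAA on the plus strand at -110 to -103 and the shorter TGGGAA on the minus strand at -135 to -130. In Psen2 a single TGTGGGAA lay on the minus strand at -89 to -82.

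Among the trafficking and ubiquitin regulators, no gene passed the fold in either cKO library. Numb, an endocytic adaptor that removes Notch from the membrane, had 21.5 CPM in cKO 1, 20.6 CPM in cKO 2 and 21.4 CPM in floxed. Its homologue Numbl had 135.6, 162.2 and 143.9 CPM. Mib1, the ubiquitin ligase that makes ligands competent by driving their endocytosis, had 79.2, 63.6 and 66.7 CPM. For these 3 genes floxed lay between the cKO libraries.

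The Deltex genes encode ubiquitin ligases that bind the intracellular part of Notch. Dtx1 had 144.9 CPM in cKO 1, 160.7 CPM in cKO 2 and 167.5 CPM in floxed. Floxed was the highest library, and the fitted log2 fold of -0.13 (SE 0.14, edgeR adjusted p = 0.9999) was the largest of this group. Dtx3, with the highest level per kilobase of all 34 genes (150.5 to 177.3 CPM per kilobase), had 387.1, 456.1 and 395.4 CPM. Dtx4 had 70.9, 70.2 and 69.0 CPM, the narrowest spread among the Deltex genes.

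**Figure D2:**
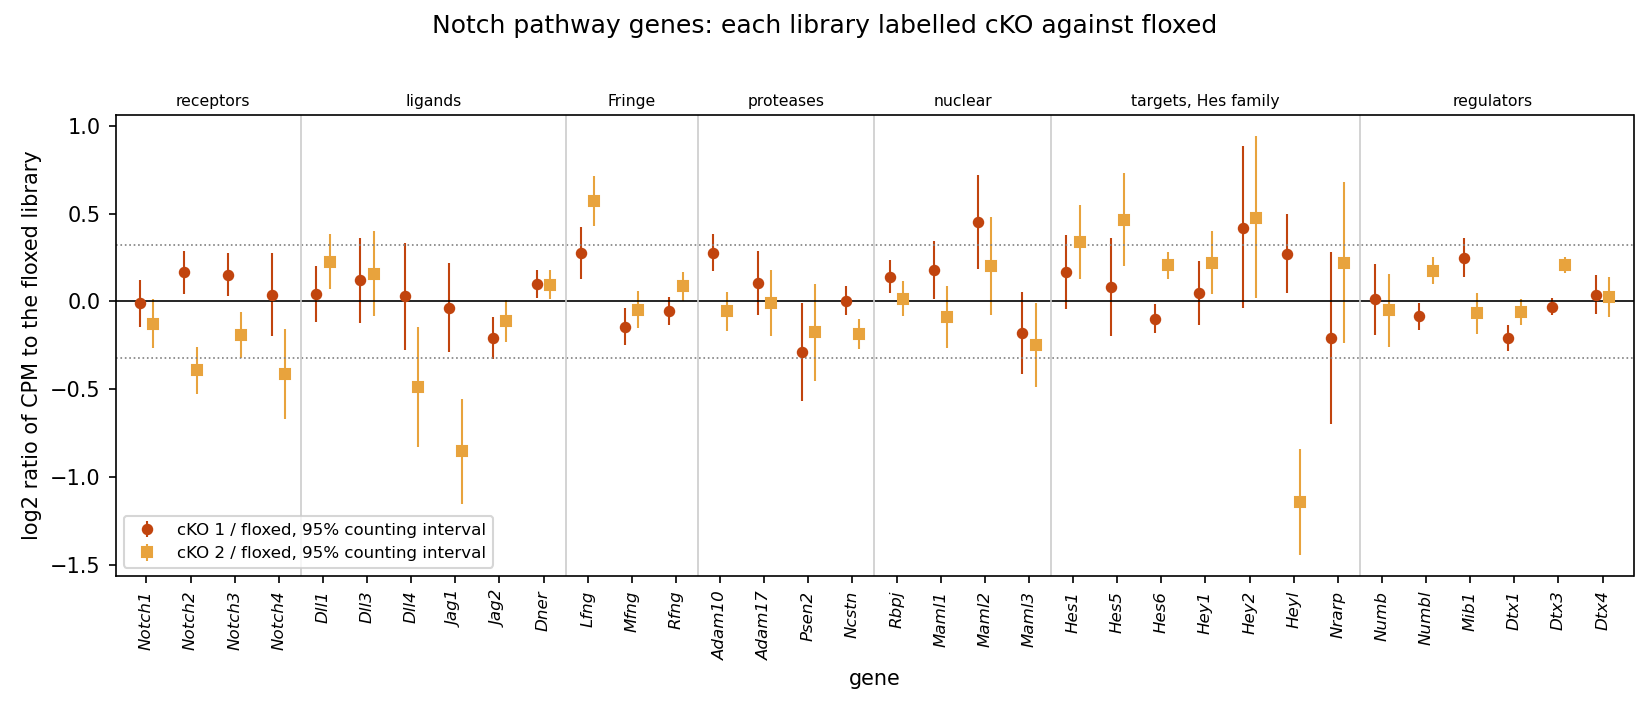
Log2 ratio of CPM in cKO 1 (circles) and in cKO 2 (squares) to the floxed library for each of the 34 genes, with exact 95% counting intervals as bars, and dotted lines at 25% above and 20% below floxed. Lfng stands above 0 in both libraries (0.27 and 0.57), and Jag1 (-0.85) and Heyl (-1.14) stand low in cKO 2 alone.

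Taking all 34 genes, floxed lay below both cKO libraries for 11, against 27.7% of all genes tested, and above both for 7, against 31.8%. For the remaining 16 it lay between them. The libraries labelled cKO were also compared with each other, which uses no floxed value. Of the 34, 7 were past the fold as higher in cKO 1 than in cKO 2 (20.6%, against 15.8% of all genes tested) and 1 as lower, Hes5 (2.94%, against 5.63%). With TMM scaling 5 were higher (against 13.7% of all genes) and 4 lower (against 8.01%). The 7 were Heyl, Jag1, Notch2, Dll4, Notch4, Notch3 and Adam10, of which Notch3 and Adam10 drop out with TMM, and Hes6, Nrarp and Lfng join Hes5.

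The log2 ratio of cKO 1 to cKO 2 was 1.41 (95% interval 1.13 to 1.70) for Heyl, 0.82 (0.52 to 1.12) for Jag1 and 0.56 (0.43 to 0.69) for Notch2. It was 0.51 (0.18 to 0.85) for Dll4 and 0.45 (0.20 to 0.70) for Notch4. Vessel markers differed in the same direction. All 15 endothelial markers were past the fold as higher in cKO 1 than in cKO 2, where 15.8% of all genes tested were. Their median log2 ratio was 0.89, and they summed to 495 CPM in cKO 1, 251 CPM in cKO 2 and 421 CPM in floxed. Of 10 pericyte and smooth muscle markers 9 were past it as higher, with a median of 1.27 over the 9 tested and sums of 209, 93.9 and 173 CPM. The remaining one, Tagln, had 0 counts in cKO 2. All 12 meningeal and fibroblast markers were higher in cKO 1 too, with a median of 4.68. The part of these cells in the values of Heyl, Jag1, Dll4, Notch2 and Notch4 was not tested.

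Radial glia markers were set beside the Hes and Lfng values. Of the 11 radial glia markers 7 were past the fold as higher than floxed in cKO 1 (against 8.03% of all genes) and 4 in cKO 2 (against 5.62%), and 0 were lower, and their sums were 2808, 2686 and 2064 CPM in cKO 1, cKO 2 and floxed. Vim, the intermediate filament gene of radial glia and the most abundant of these markers, had 858 CPM in cKO 1, 874 CPM in cKO 2 and 572 CPM in floxed. Not every marker stood above floxed. Pax6 was slightly below it in both cKO libraries (71.4 and 70.4 CPM, with 73.0 CPM in floxed). Sox2 and Ednrb were slightly below it in cKO 2 only. These shortfalls lay within counting error. The excess of Lfng, Hes1 and Hes5 over floxed was larger in cKO 2. The radial glia sum was slightly higher in cKO 1, but single markers went either way. Slc1a3 had 151.6 CPM in cKO 1 and 116.4 CPM in cKO 2, and Fabp7 had 661 and 679 CPM. Whether the share of radial glia bears on Lfng, Hes1 and Hes5 was not tested.

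**Figure D3:**
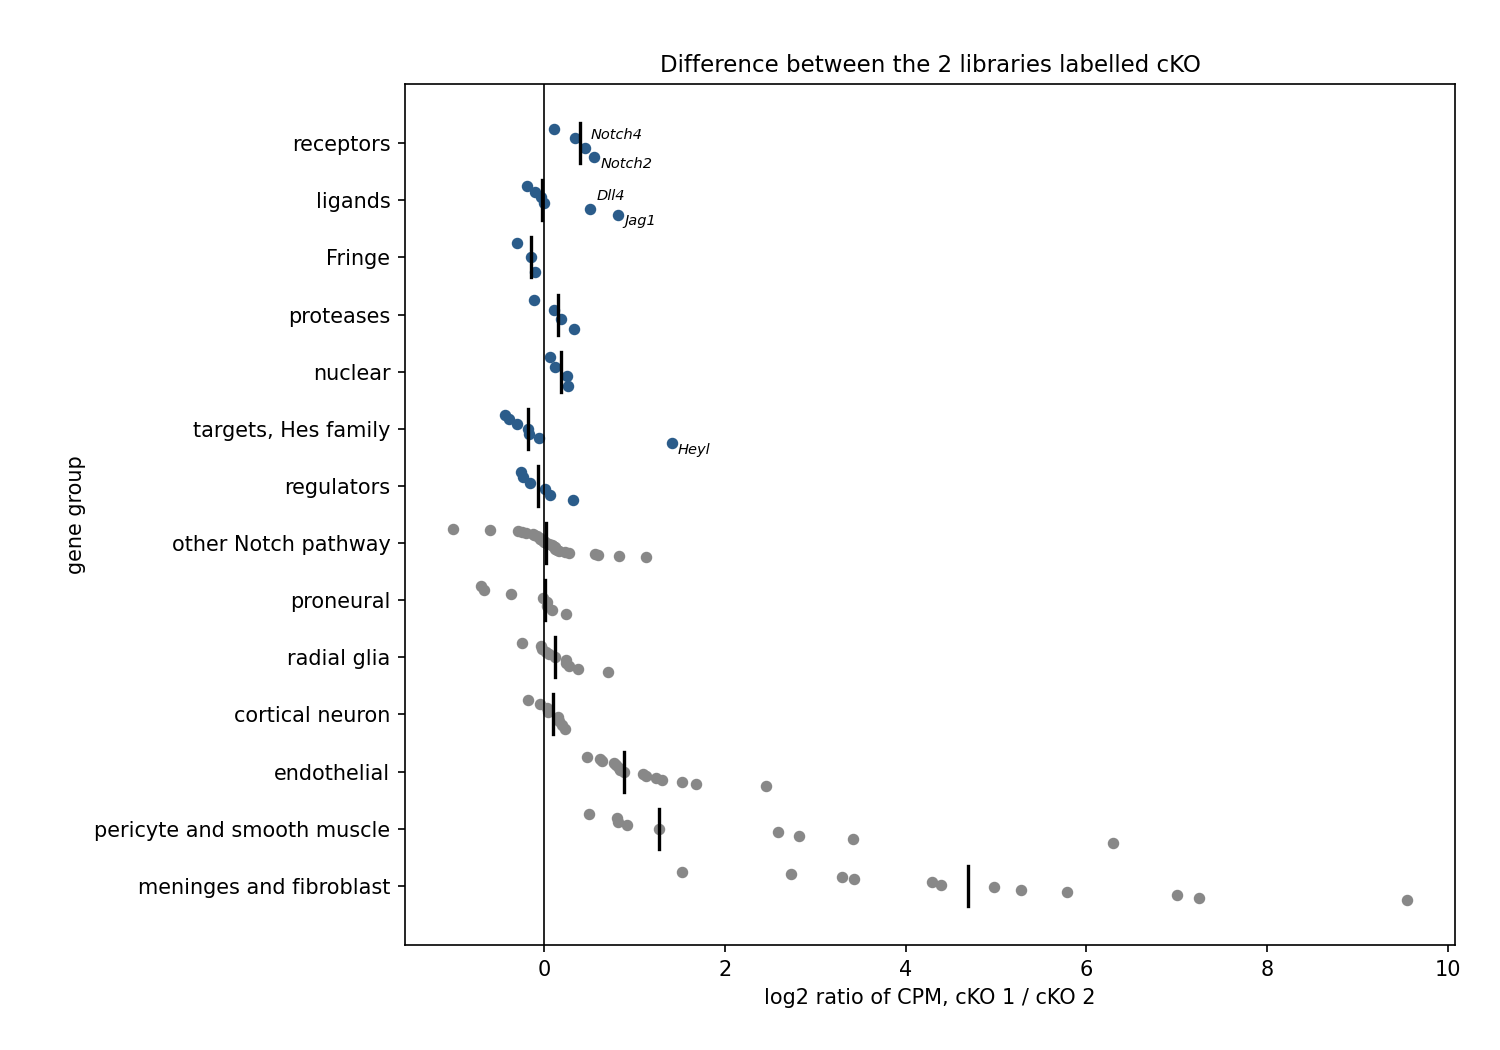
Log2 ratio of CPM in cKO 1 to cKO 2 for the genes of each role (dark points), of the wider pathway lists and of cell type marker lists (grey points), with a black bar at each group's median; Tagln, at 0 counts in cKO 2, has no point. Heyl (1.41), Jag1 (0.82), Notch2 (0.56), Dll4 (0.51) and Notch4 (0.45) lie to the right, as do the endothelial (median 0.89) and mural (1.27) markers, and the medians of the radial glia (0.13) and cortical neuron (0.10) markers lie near 0, although single radial glia markers such as Ednrb (0.71) lie further right.

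A wider list of 27 further genes of the pathway, with the rest of gamma-secretase, receptor glycosylation, coactivators and corepressors, was counted in the same way. In cKO 1, 1 of 27 was past the fold as higher than floxed (8.03% of all genes were) and 0 as lower (4.77%). In cKO 2, 3 were higher (5.62%) and 2 lower (13.9%), and counts this small are a description only. Over both libraries edgeR called 0 of 27, with 0 at an unadjusted p under 0.05, where 1.53% of all genes were. Those named here were picked after their values were seen. Kat2b, an acetyltransferase that assists the Notch complex, was the one higher in cKO 1, with 21.99 CPM in cKO 1, 14.9 CPM in cKO 2 and 16.6 CPM in floxed. In cKO 2 the higher ones were Dlk2, a Delta-like membrane protein (19.4, 29.3 and 22.7 CPM), the Deltex gene Dtx2 (32.1, 34.99 and 27.02 CPM) and Hes7, a repressor of the segmentation clock that was barely detected (0.615, 1.24 and 0.561 CPM). The lower ones were Dlk1, a relative of Dlk2 (33.8, 22.3 and 28.5 CPM), and Egfl7, a protein secreted by endothelium (36.9, 16.8 and 34.6 CPM), which went the way of the vessel markers.

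The proneural genes that Hes proteins repress differed in direction from gene to gene. Neurog2, the main proneural gene of the cortex, had 142.1 CPM in cKO 1, 183.5 CPM in cKO 2 and 164.6 CPM in floxed. Of 8 genes in this list, 1 was past the fold as higher and 2 as lower in cKO 1, where 8.03% and 4.77% of all genes were. In cKO 2, 2 were higher and 1 lower, where 5.62% and 13.9% of all genes were. Neurod1, a factor of early neurons, was higher than floxed in either comparison (72.2, 70.6 and 55.1 CPM). Insm1, which drives the formation of basal progenitors, was lower (144.5, 141.0 and 199.7 CPM). Gadd45g, a stress-response gene found in differentiating progenitors, had 56.5, 89.2 and 50.5 CPM and was past the fold in cKO 2, and Neurog1 had 4.46, 7.21 and 6.50 CPM and was past it as lower in cKO 1. Over both libraries edgeR called 0 of these 8 genes, with 2 at an unadjusted p under 0.05, where 1.53% of all genes were. A count of 2 is a description only. Insm1, Neurog2, Gadd45g and Btg2 also stand in the list of intermediate progenitor markers, which summed to 659, 730 and 779 CPM.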

How the data were processed

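Cortical RNA was isolated with Trizol, and 2 µg of it per library went into a TruSeq RNA kit, per the labels' protocols; this kit does not mark strand. Unnormalized counts for each gene, in a column per library, were deposited by the authors, per the file headers. The submitters' processing notes list HTSeq 0.6.0, TopHat2 2.0.12, Bowtie2 2.2.3 and the build mm9. The printed positions are not those of mm9: 17844 of 19968 shared genes, and 32 of the 34 members, stand at the identical position in GENCODE M21, so the tables' own coordinates are printed as GRCm38. The counting of reads with several matches was not given in the sources used here. The authors also deposited CPM values (a count of 0 replaced by 0.5), the ratio (fold) of these, its log2 value, and p-values of 1 library against 1, per the file headers and from the values. The authors' p-values are printed only where named. The floxed column was identical in both tables for all 19968 shared genes and was used once.

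Columns were assigned to groups because their names and the sample titles both hold KO or WT. CPM was computed on library totals over shared genes, and per kilobase on the exon union in GENCODE M21. The test on counts was that of edgeR 4.0.16, run in R 4.3.3 (quasi-likelihood, library totals without further scaling, filterByExpr with a minimum count of 10, 16725 genes, Benjamini-Hochberg adjustment, 1 residual degree of freedom, common biological coefficient of variation 0.224), after the script was tested on simulated data. The lone floxed library is assumed to vary like the cKO libraries. The SE is the log2 fold divided by the square root of F. Ratios of 2 libraries have exact (Clopper-Pearson) 95% intervals. Alternatives were TMM, DESeq2 1.42.0, limma-voom 3.58.1, no filter, other totals, a mark of 1.5-fold and leaving out each cKO library. Full statistics are given for the gene with the largest fitted fold of each role, since no gene was past the fold in the same direction in both comparisons. The members, lists and rules were chosen with earlier results of these data known. The values of 1 gene of a wider list are not reported here.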

Additional observations from a re-analysis of the deposited data

How the results depend on the processing

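The fits called few genes under each setting. Over all genes edgeR called 1 (Ptx3), edgeR with TMM called 0 (217 at an unadjusted p under 0.05), DESeq2 with its size factors called 5, and edgeR with no filter on low counts called 0 (412 at an unadjusted p under 0.05). Among the 34 Notch genes the number called was 0 in each of these fits and in limma-voom. At a mark of at least 1.5-fold, 0 of the 34 genes were higher in cKO 1 against floxed. In cKO 2 against floxed, 0 were higher and 2 lower (Jag1 and Heyl). In cKO 1 against cKO 2, 2 were higher and 0 lower. The share of all genes past this stricter mark was not computed, so these counts are a description only. At the earlier mark, TMM gave 4 lower genes in place of 1 in cKO 1 against cKO 2, since TMM moves cKO 2 up against cKO 1. The fitted log2 fold of Notch3 was -0.01 and became 0.0046 with TMM and 0.0040 with DESeq2, and the other 33 genes kept their sign in every fit. Over all genes TMM moved the median fitted log2 fold from -0.0085 to 0.0085. Totals over all genes listed, and the totals implied by the authors' CPM (chosen after seeing the data), moved no fitted fold of the 34 by more than 3.24e-05. Leaving out a cKO library leaves 1 library against 1, a value with no test, and gives the ratios printed for each library. No paired analysis was possible because the single floxed library has no partner and the column names carry no number shared with a sample. Depth limits the rarest genes most: at 69 to 101 counts the interval of Hey2 spans about a log2 unit, while that of Dtx3 is narrow.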
